A study of Mus musculus with 12 samples.

Results

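Interferons are secreted cytokines that alert cells to viral nucleic acid and to tissue damage. Type I interferons signal through JAK1 and TYK2 to a complex with STAT2 and IRF9 that binds the interferon-stimulated response element, whereas interferon gamma acts mainly at gamma-activated sites. The genes these factors switch on sense and degrade viral RNA, hold virions at the cell surface, attack pathogen-containing vacuoles and feed peptides to antigen presentation, and in the kidney they are read out both in epithelium and in infiltrating leukocytes.

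The genes described here are 36 canonical interferon-stimulated genes, taken by symbol from the 55471 genes of the deposited table, in which each was found once. They comprise the signalling and transcription factors Stat2, Irf9 and Irf7, the cytoplasmic RNA sensors Ddx58 (RIG-I), Ifih1 (MDA5) and Dhx58 (LGP2), and the ubiquitin-like modifier Isg15 and its protease Usp18. The others are 4 IFIT genes, 5 OAS genes, 11 other antiviral effectors, 7 interferon-inducible GTPases of the GBP and IRG families, and the peptide transporter subunit Tap1. All 36 passed the filter on low values, which kept 18093 genes.

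The libraries came from bulk RNA of whole left kidney tissue of C57/BL6 mice. Unilateral ureteral obstruction was made with a microvascular clamp on the left ureter at 8 to 12 weeks of age, and kidneys were taken at day 5 or day 0. There were 3 libraries of Sprr2f knockout (KO) kidneys at day 5, 3 of wild type (WT) kidneys at day 5, 4 of KO kidneys at day 0 and 2 of WT kidneys at day 0. Sprr2f belongs to a family of small, proline-rich proteins best known from cornified epithelium. The labels give neither the construction of the KO allele nor whether day 0 kidneys were sham-operated or untouched, and the design text speaks of KO mice alone, so how far WT kidneys were handled together with them is not given. Replicates are known only as separate samples, so a p-value reflects how these samples vary, which may be technical. In bulk kidney, fewer cells of a type and less RNA per cell cannot be told apart.

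Libraries held 16567256 to 19398882 reads, so a single read was worth 0.0515 to 0.0604 CPM (counts scaled to the library total). Values named scaled CPM below are the deposited CPM divided by a TMM factor of 0.795 to 1.19 that corrects for RNA composition. Plain CPM is as deposited, before scaling. Sprr2f itself was at 0, 2.17 and 4.07 CPM in KO day 5 libraries against 27.1, 26.9 and 58.8 CPM in WT day 5 libraries. It was at 0 to 0.262 CPM in KO day 0 and 0.106 and 0 CPM in WT day 0 libraries, where it separates no genotypes. Although the series title speaks of female mice, 7 libraries carried Y-linked transcripts (KO day 5 replicate 2, WT day 5 replicate 3, all 4 KO day 0 and WT day 0 replicate 1) and the other 5 carried Xist. Proximal tubule markers summed to 2565 to 4899 CPM in KO day 5, 2367 to 3314 CPM in WT day 5, 9984 to 10381 CPM in KO day 0 and 9186 to 10485 CPM in WT day 0 libraries, with none of the 7 at 0.

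Promoters of these genes are shown first, because the sequence elements through which interferon acts can be searched for in them. RefSeq promoter windows (GRCm38.p6, 250 bases before to 50 after a transcription start) were matched for 27 of the 36 genes by symbol. The core of the interferon-stimulated response element was searched on either strand as GAAA, any 2 bases and GAAA, which reads TTTC, any 2 bases and TTTC on the opposite strand. It was present in 17 of the 27 (63.0%), against 3.99% of the 27025 genes with a window. The gamma-activated site, searched as TTC, any 3 bases and GAA, reads the same on either strand and was present in 7 of the 27 (25.9%), against 9.55% of all genes. The response element was found in all 6 matched GTPase genes, in both matched RNA sensor genes, in Isg15, in 3 of 4 IFIT genes and in 2 of 4 matched OAS genes. It was found in 1 of 3 signalling factor genes, in 2 of 6 matched genes of the other effectors and not in Tap1. A match describes letters in a window and is not a measured binding site. The stretches below run 5′ to 3′ on the strand of the gene, with every match to either motif within them in capitals. They lie upstream of the transcription start, between positions -200 to -133 (Ifit3b) and -32 to -1 (Oas1a) relative to it, and were chosen among genes with a core whose values are given in the following paragraphs.
Isg15, chr4:156200863-156200908, minus strand, with 3 overlapping cores: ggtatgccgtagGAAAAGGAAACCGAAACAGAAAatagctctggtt
Ifit3, chr19:34583361-34583428, plus strand: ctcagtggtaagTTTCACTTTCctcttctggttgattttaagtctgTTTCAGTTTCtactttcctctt
Ifit3b, chr19:34607757-34607824, plus strand: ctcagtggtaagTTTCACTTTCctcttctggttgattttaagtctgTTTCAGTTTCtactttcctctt
Oas1a, chr5:120907526-120907557, minus strand: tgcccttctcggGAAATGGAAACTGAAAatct
Bst2, chr8:71537575-71537620, minus strand, where a gamma-activated site overlaps the cores: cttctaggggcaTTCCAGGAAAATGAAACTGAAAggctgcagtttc
Gbp2, chr3:142620592-142620625, plus strand: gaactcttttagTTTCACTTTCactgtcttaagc
Rsad2, chr12:26456551-26456584, minus strand: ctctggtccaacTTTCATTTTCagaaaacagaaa
Igtp, chr11:58199499-58199543, plus strand, with both motifs: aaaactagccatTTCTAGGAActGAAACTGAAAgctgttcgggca
The Ifit3 and Ifit3b stretches are identical over 68 of 68 bases, and both genes hold 2 cores there. Isg15 and Bst2, which were higher after obstruction, and Rsad2 and Igtp, which were not called higher, all hold at least 1 core.

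In the following, values of single libraries are scaled CPM in the order of the replicate numbers, and changes are log2 fold changes with their SE. The first comparison asks how the response genes differ between kidneys obstructed for 5 days and kidneys at day 0. In KO kidneys 29 of the 36 genes rose and 2 fell (Igtp and Cmpk2), with 5 not called. In WT kidneys 29 rose, none fell and 7 were not called. A call means a limma adjusted p under 0.05 over all genes tested, and at that threshold 29.4% of all genes were called higher and 25.4% lower in KO kidneys (54.8% in either direction), against 24.5% higher and 22.6% lower in WT kidneys (47.1% in either direction). The median log2 fold change of the 36 genes was 0.94 in KO and 1.07 in WT kidneys, beside 0.07 and 0.04 for all genes. A log2 fold change of at least 1 was reached by 17 genes in KO and 20 in WT kidneys, all of them called.

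Both contrasts called the same 27 genes higher. Usp18 and Gbp3 were called higher in KO only, and Ifit3b and Irgm1 in WT only. Igtp and Cmpk2 were called lower in KO only, and Rsad2, Ifi44 and Iigp1 were called in neither. Every KO day 5 library lay above every KO day 0 library for 28 genes (29.5% of all genes did so), and below for Igtp alone (25.6%). Every WT day 5 library lay above both WT day 0 libraries for 30 genes (34.4%), and below for Rsad2 alone (30.7%). Before scaling, the 36 genes together took 1265, 1132 and 1224 CPM in KO day 5, 1668, 1357 and 1461 CPM in WT day 5, 601, 438, 444 and 484 CPM in KO day 0 and 496 and 597 CPM in WT day 0 libraries.

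**Figure D1:**
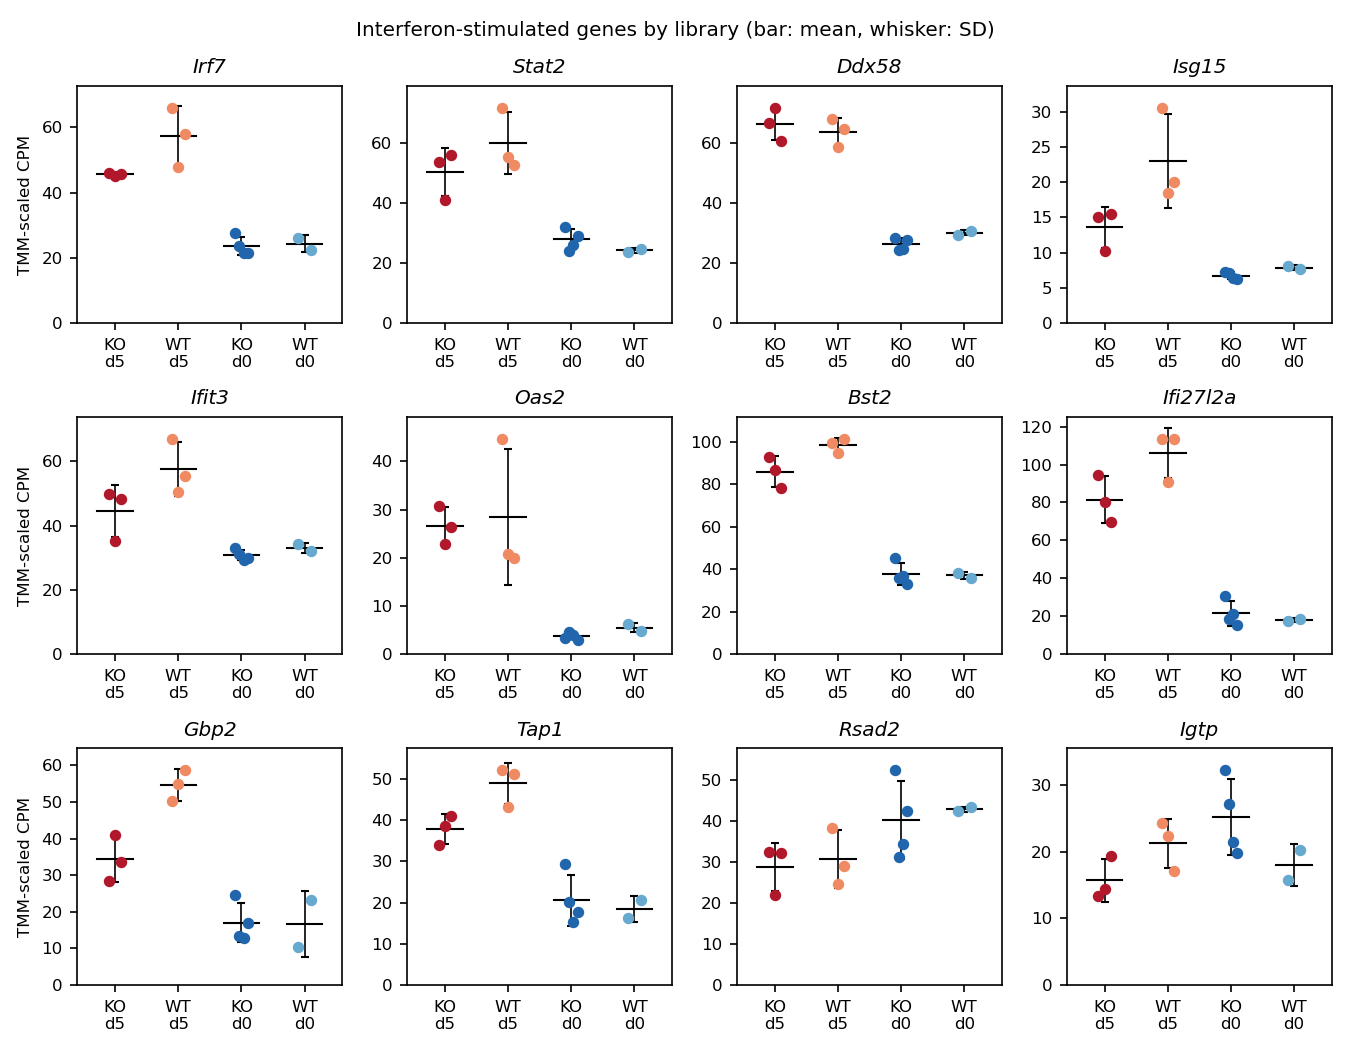
Scaled CPM (vertical axes, from 0) of 12 of the genes in each library, with points for libraries, bars for group means and whiskers for the SD, in KO day 5, WT day 5, KO day 0 and WT day 0 kidneys. The day 5 points stand clear of the day 0 points for Irf7, Stat2, Ddx58, Isg15, Ifit3, Oas2, Bst2, Ifi27l2a, Gbp2 and Tap1, whereas those of Rsad2 and Igtp lie within or below the day 0 range in KO kidneys.

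Among the signalling and transcription factors, all 3 rose in both genotypes. Stat2, a subunit of the complex that binds the response element, stood at 53.6, 41.1 and 56.2 in KO and 71.9, 55.5 and 52.6 in WT at day 5, against 32.1, 24.1, 26.1 and 29.2 in KO and 23.7 and 24.8 in WT at day 0. Its log2 fold change with obstruction was 0.83 ± 0.14 (SE) in KO (adjusted p = 0.000228) and 1.27 ± 0.16 in WT kidneys (adjusted p = 3.95e-05). Irf9, the DNA-binding subunit of the same complex, stood at 50.5, 53.1 and 52.8 in KO and 59.0, 52.9 and 49.9 in WT at day 5, against 23.4, 28.5, 22.9 and 22.9 in KO and 25.3 and 21.5 in WT at day 0. The day 5 and day 0 libraries of either gene did not overlap, and Irf9 had log2 fold changes of 1.08 ± 0.10 in KO and 1.19 ± 0.12 in WT kidneys (adjusted p = 1.54e-06 and 4.67e-06). Irf7, which amplifies interferon alpha production, stood at 46.0, 45.1 and 45.8 in KO and 66.1, 47.7 and 57.9 in WT at day 5, against 27.6, 23.8, 21.5 and 21.5 in KO and 26.1 and 22.4 in WT at day 0. Its 3 KO day 5 libraries lay close together, below all WT day 5 libraries and above all day 0 libraries. Irf7 rose by 0.95 ± 0.12 in KO (adjusted p = 2.29e-05) and 1.21 ± 0.14 in WT kidneys (adjusted p = 1.68e-05).

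The RNA sensors also rose, by unequal amounts. Ddx58, which binds short 5′-triphosphate RNA, stood at 66.7, 71.9 and 60.8 in KO and 68.1, 58.7 and 64.6 in WT at day 5, against 28.5, 24.4, 24.6 and 27.6 in KO and 29.5 and 30.8 in WT at day 0. Its log2 fold change of 1.32 ± 0.09 in KO kidneys carried the smallest adjusted p of the 36 genes (1.28e-07), beside 1.07 ± 0.10 in WT (adjusted p = 4.29e-06). Ifih1, which senses long double-stranded RNA, stood at 21.1, 19.9 and 22.1 in KO and 27.0, 22.9 and 24.2 in WT at day 5, against 17.3, 15.3, 15.5 and 17.4 in KO and 15.4 and 17.8 in WT at day 0. Its rise was small, at 0.35 ± 0.10 in KO (adjusted p = 0.00856) and 0.56 ± 0.12 in WT (adjusted p = 0.00152), yet no day 5 library of either genotype lay within the day 0 range. With the sex-chromosome pattern as a covariate the KO value of Ifih1 was 0.28 and not called. Dhx58, a regulator of both sensors, stood at 7.63, 6.41 and 9.24 in KO and 12.8, 7.05 and 10.6 in WT at day 5, against 3.89, 2.81, 3.05 and 3.45 in KO and 3.45 and 3.02 in WT at day 0. Dhx58 rose by 1.11 ± 0.20 in KO (adjusted p = 0.000438) and 1.48 ± 0.24 in WT kidneys (adjusted p = 0.000244), with no overlap between the days.

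In the ISG15 system, Isg15, the modifier itself, stood at 15.0, 10.2 and 15.5 in KO and 30.6, 18.4 and 20.0 in WT at day 5, against 7.29, 7.06, 6.35 and 6.19 in KO and 8.11 and 7.62 in WT at day 0. It rose by 0.94 ± 0.18 in KO (adjusted p = 0.000780) and by 1.46 ± 0.22 in WT kidneys (adjusted p = 0.000135), with WT day 5 replicate 1 the highest library. Usp18, which removes ISG15 from proteins and damps the type I receptor, stood at 5.73, 5.91 and 7.20 in KO and 9.50, 6.20 and 6.79 in WT at day 5, against 5.01, 3.57, 2.92 and 2.80 in KO and 5.08 and 5.08 in WT at day 0. Usp18 rose in KO (0.76 ± 0.20, adjusted p = 0.00616) and was not called in WT (0.50 ± 0.24, adjusted p = 0.107), where every day 5 library nevertheless lay above both day 0 libraries. The interaction of genotype and day for Usp18 was 0.26 (adjusted p = 0.851).

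The IFIT genes, whose products bind foreign RNA and block its translation, lie side by side on chromosome 19 and had median log2 fold changes of 0.57 in KO and 0.83 in WT kidneys, with 3 called higher in KO and all 4 in WT. Ifit2 stood at 30.6, 22.7 and 22.9 in KO and 35.0, 31.4 and 37.8 in WT at day 5, against 18.7, 14.9, 14.3 and 16.2 in KO and 16.5 and 21.0 in WT at day 0. Ifit3 stood at 49.9, 35.2 and 48.3 in KO and 67.1, 50.6 and 55.3 in WT at day 5, against 32.9, 31.1, 29.3 and 30.0 in KO and 34.2 and 32.0 in WT at day 0. The day 5 libraries of both lay above all day 0 libraries of their genotype, and the log2 fold changes were 0.64 ± 0.14 and 0.50 ± 0.12 in KO (adjusted p = 0.00144 and 0.00413), against 0.88 ± 0.16 and 0.78 ± 0.15 in WT kidneys (adjusted p = 0.000666 and 0.000841). Ifit1 stood at 15.7, 11.6 and 16.3 in KO and 21.7, 14.4 and 19.0 in WT at day 5, against 9.95, 8.96, 7.06 and 7.26 in KO and 8.59 and 10.3 in WT at day 0. It rose by 0.77 ± 0.17 in KO (adjusted p = 0.00235) and 0.91 ± 0.21 in WT kidneys (adjusted p = 0.00307). Ifit3b, the close copy of Ifit3, stood at 16.0, 8.62 and 14.7 in KO and 16.2, 18.9 and 16.7 in WT at day 5, against 10.5, 8.81, 10.2 and 8.87 in KO and 11.5 and 11.6 in WT at day 0. KO day 5 replicate 2 (8.62) lay below all KO day 0 libraries, and Ifit3b was not called in KO (0.39 ± 0.18, adjusted p = 0.0794) while just passing in WT (0.56 ± 0.21, adjusted p = 0.0453). Without that library the KO value was 0.65 and called, whereas the WT call was lost without any of 9 of the 12 libraries (0.49 to 0.60). Ifit3 and Ifit3b share 51.2% and 45.0% of their 50-base transcript stretches with other genes, chiefly each other, so the division of reads between them is uncertain.

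The OAS genes here are double-stranded RNA sensors of that family and their relatives Oasl1 and Oasl2. They had the highest median log2 fold change of the roles (1.63 in both genotypes), and all 5 rose in both. Oas2 stood at 30.7, 22.8 and 26.4 in KO and 44.8, 20.7 and 19.9 in WT at day 5, against 3.40, 4.48, 4.02 and 2.92 in KO and 6.17 and 4.83 in WT at day 0. Its log2 fold change was 2.69 ± 0.25 in KO (adjusted p = 1.72e-06) and 2.18 ± 0.30 in WT kidneys (adjusted p = 6.40e-05), and 1 of the 3 WT day 5 libraries stood well above the other 2. Oasl2 stood at 42.3, 37.5 and 47.0 in KO and 63.8, 40.2 and 49.6 in WT at day 5, against 18.6, 14.4, 15.0 and 16.1 in KO and 21.1 and 15.3 in WT at day 0. It rose by 1.37 ± 0.16 in KO (adjusted p = 1.19e-05) and 1.46 ± 0.19 in WT kidneys (adjusted p = 4.17e-05). Oas1a, Oas3 and Oasl1 rose by 1.63, 1.99 and 1.36 in KO and by 1.63, 1.76 and 1.08 in WT kidneys. The WT call of Oasl1 was lost without WT day 5 replicate 1 (1.05) or 3 (0.90) and without WT day 0 replicate 1 (0.59). Oas1a shares 57.6% of its 50-base stretches with other genes, mostly Oas1g, so its reads may be divided between them.

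Of the 11 other antiviral effectors, 8 rose in each genotype. Ifi27l2a, a small interferon-induced membrane protein, stood at 94.3, 80.3 and 69.9 in KO and 114, 90.6 and 113 in WT at day 5, against 30.4, 18.7, 21.3 and 15.3 in KO and 17.2 and 18.7 in WT at day 0. It had the largest change of the 36 genes in WT kidneys, 2.52 ± 0.22 (adjusted p = 1.84e-06), and changed by 1.94 ± 0.19 in KO kidneys (adjusted p = 2.44e-06). Bst2 (tetherin), which holds budding virions on the cell surface, stood at 92.8, 87.0 and 78.5 in KO and 99.4, 94.7 and 102 in WT at day 5, against 45.4, 35.8, 37.0 and 33.0 in KO and 38.4 and 36.1 in WT at day 0. Bst2 rose by 1.18 ± 0.10 in KO (adjusted p = 8.55e-07) and 1.39 ± 0.12 in WT kidneys (adjusted p = 1.54e-06), with no overlap between the days. Transcripts of Mx1 and Mx2, genes of the dynamin-like GTPase family, rose by 1.80 and 1.10 in KO and by 1.78 and 1.05 in WT kidneys. The gene annotation lists Mx2 as a polymorphic pseudogene, and protein was not measured. Parp14, a mono-ADP-ribosyltransferase, rose by 1.15 in KO and 1.21 in WT kidneys. In the same order, the receptor chaperone Rtp4 rose by 1.19 and 1.11, Ifi35 by 0.73 and 0.97, and the pro-apoptotic Xaf1 by 0.83 and 0.64. The WT calls of Xaf1 and Rtp4 were lost without WT day 0 replicate 2 (0.46 and 0.79), and that of Xaf1 also without WT day 5 replicate 1 (0.46).

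The other 3 effectors behaved differently. Rsad2 (viperin), a radical SAM enzyme that makes a chain-terminating nucleotide, stood at 32.3, 22.03 and 32.1 in KO and 38.3, 24.7 and 28.9 in WT at day 5, against 52.5, 31.3, 34.2 and 42.3 in KO and 42.4 and 43.3 in WT at day 0. Its WT day 5 libraries lay below both WT day 0 libraries and its KO libraries overlapped, with log2 fold changes of -0.46 ± 0.19 in KO (adjusted p = 0.0594) and -0.50 ± 0.23 in WT kidneys (adjusted p = 0.0942). Rsad2 was called lower in KO without KO day 0 replicate 2 (-0.59) or 3 (-0.55), and in both genotypes without WT day 5 replicate 1 (-0.46 in KO and -0.67 in WT). It was also called lower in KO with RLE scaling (-0.50), by DESeq2 (-0.52), with the sex-chromosome covariate (-0.62) and within Y-linked libraries (-0.81), in 7 of 23 alternatives in all. With scaling by library size alone the KO value was -0.02 and not called. Cmpk2, the nucleotide kinase that lies 12751 bases from Rsad2 on chromosome 12 on the opposite strand, stood at 18.1, 9.66 and 14.3 in KO and 18.7, 14.2 and 15.8 in WT at day 5, against 22.1, 19.5, 17.8 and 18.6 in KO and 16.7 and 18.9 in WT at day 0. Cmpk2 fell by 0.50 on the log2 scale in KO kidneys (SE 0.18, adjusted p = 0.0278). Its KO value was -0.06 and not called when libraries were scaled by size alone. Cmpk2 had -0.13 ± 0.21 in WT kidneys (adjusted p = 0.638), where the value became 0.28 with the same scaling. KO day 5 replicate 2 was the lowest Cmpk2 library, and without it the KO value was -0.27 and not called, nor was it without KO day 0 replicate 1 (-0.46). Ifi44, a further member of the response, stood at 22.9, 13.6 and 16.4 in KO and 18.3, 15.7 and 14.2 in WT at day 5, against 17.2, 14.6, 13.5 and 16.4 in KO and 16.2 and 13.3 in WT at day 0. Its libraries overlapped in both genotypes (0.16 ± 0.16 in KO and 0.12 ± 0.20 in WT, adjusted p = 0.433 and 0.650). Its sign turned without KO day 5 replicate 1 (-0.04 in KO) and without WT day 0 replicate 2 (-0.02 in WT).

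**Figure D2:**
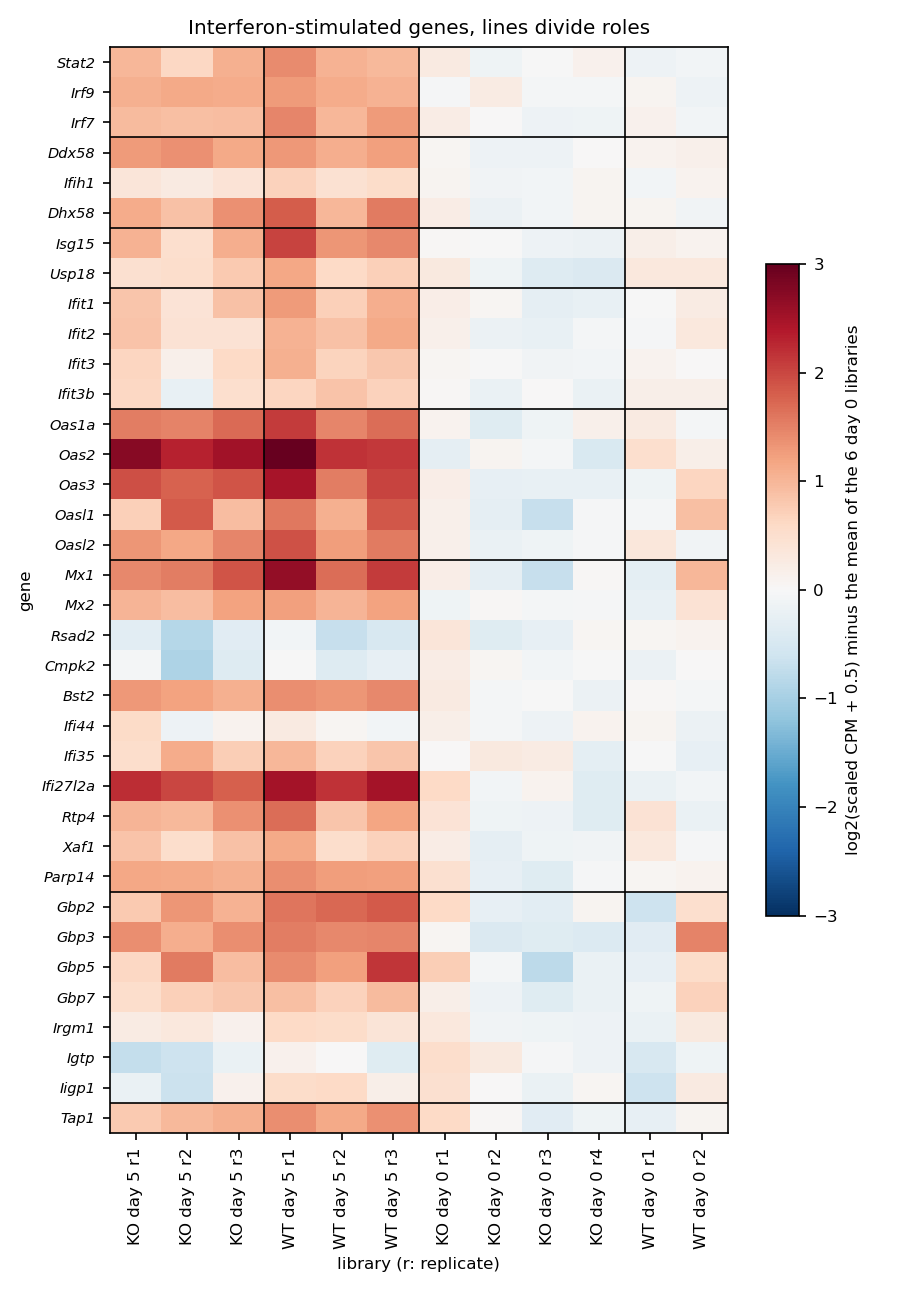
Each of the 36 genes (rows, divided by role) in each of the 12 libraries (columns), as log2(scaled CPM + 0.5) minus the mean of the 6 day 0 libraries. Day 5 columns are red for most genes, Rsad2 and Cmpk2 are white to blue in all 6 day 5 columns, and Igtp and Iigp1 are blue in 3 and 2 of the 3 KO day 5 columns.

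Of the 7 interferon-inducible GTPases, 4 rose and 1 fell in KO and 4 rose and none fell in WT kidneys. The guanylate-binding proteins, which coat and lyse pathogen vacuoles, account for all 4 genes that rose in KO. Gbp2 stood at 28.4, 41.1 and 33.6 in KO and 50.2, 54.9 and 58.9 in WT at day 5, against 24.7, 13.5, 13.0 and 17.1 in KO and 10.4 and 23.1 in WT at day 0. It rose by 1.02 ± 0.26 in KO (adjusted p = 0.00447) and 1.78 ± 0.30 in WT kidneys (adjusted p = 0.000391), with all day 5 libraries above the day 0 libraries of their genotype. Gbp3 stood at 50.7, 40.6 and 51.0 in KO and 55.6, 52.4 and 52.9 in WT at day 5, against 19.8, 14.0, 14.6 and 14.1 in KO and 14.8 and 53.9 in WT at day 0. Replicate 2 of WT day 0 was at the level of the WT day 5 libraries. Gbp3 rose in KO (1.58 ± 0.30, adjusted p = 0.000770) and was not called in WT (0.91 ± 0.36, adjusted p = 0.0575). Without that library the WT value was 1.82 and called, and without WT day 0 replicate 1 it was -0.01. Replicate 2 is the only day 0 library with Xist, so that library and the sex-chromosome pattern cannot be told apart at day 0. Gbp5 and Gbp7 rose by 1.11 and 0.83 in KO and by 1.44 and 0.57 in WT kidneys, and the WT calls of both were lost without WT day 0 replicate 1 (1.04 and 0.15). Without KO day 5 replicate 2 or KO day 0 replicate 3 the KO call of Gbp5 was lost (0.84 and 0.85), and the Gbp7 call in WT (adjusted p = 0.0433) was also lost without any of 4 other libraries (0.52 to 0.57).

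The immunity-related GTPases, which in mice attack vacuoles of intracellular pathogens downstream of interferon gamma, comprised Irgm1, Igtp and Iigp1, of which none was called higher in KO and Irgm1 was called higher in WT kidneys. Irgm1 stood at 60.2, 62.9 and 55.0 in KO and 77.6, 74.2 and 66.0 in WT at day 5, against 63.0, 47.1, 46.0 and 45.8 in KO and 43.8 and 62.1 in WT at day 0. It was not called in KO (0.24 ± 0.13, adjusted p = 0.143) and called higher in WT kidneys (0.47 ± 0.16, adjusted p = 0.0282), a call lost without WT day 5 replicate 1 (0.42) or 2 (0.45) or WT day 0 replicate 1 (0.22). Without KO day 0 replicate 1, its highest KO day 0 library, Irgm1 was called higher in KO too (0.34). Igtp (Irgm3) stood at 13.4, 14.3 and 19.4 in KO and 24.2, 22.4 and 17.1 in WT at day 5, against 32.3, 27.1, 21.5 and 19.8 in KO and 15.7 and 20.2 in WT at day 0. All 3 KO day 5 libraries lay below all 4 KO day 0 libraries, and Igtp fell by 0.66 on the log2 scale in KO kidneys (SE 0.19, adjusted p = 0.0102), a value of -0.22 and no call when libraries were scaled by size alone. In WT kidneys it was 0.23 ± 0.23 (adjusted p = 0.429). The Igtp gene overlaps Irgm2 and shares 11.8% of its 50-base stretches with other genes, so reads may be divided there. Iigp1 (Irga6) stood at 18.0, 13.2 and 22.6 in KO and 30.9, 31.9 and 23.4 in WT at day 5, against 29.0, 21.1, 18.1 and 21.5 in KO and 13.3 and 25.2 in WT at day 0. Its log2 fold change was -0.33 ± 0.23 in KO kidneys (adjusted p = 0.252, and 0.11 with scaling by library size alone) and 0.62 ± 0.28 in WT kidneys (adjusted p = 0.0834). Without WT day 0 replicate 2 the WT value was 1.07 and called higher, and with the sex-chromosome covariate the KO value was -0.74 and called lower. Tap1, which pumps peptides into the endoplasmic reticulum for class I molecules, stood at 33.9, 38.7 and 41.1 in KO and 52.3, 43.3 and 51.1 in WT at day 5, against 29.4, 20.0, 15.3 and 17.6 in KO and 16.2 and 20.7 in WT at day 0. It rose by 0.90 ± 0.18 in KO (adjusted p = 0.00101) and 1.39 ± 0.22 in WT kidneys (adjusted p = 0.000188).

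**Figure D3:**
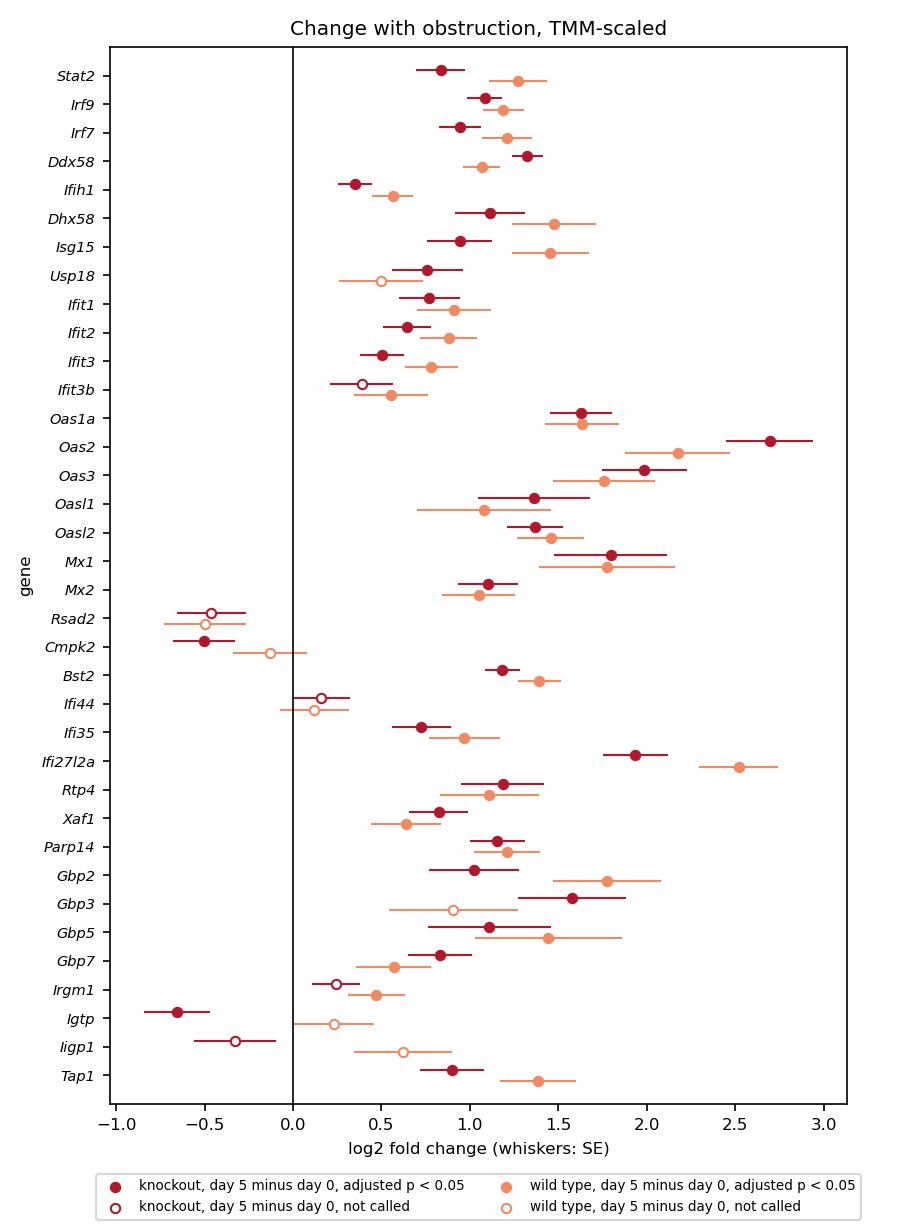
Log2 fold change of each gene, day 5 minus day 0 (horizontal axis), in KO (dark) and WT (light) kidneys, with whiskers for the SE and filled points for adjusted p under 0.05. Oas2 lies farthest right in KO (2.69) and Ifi27l2a in WT (2.52), while Rsad2 and Cmpk2 lie left of 0 in both genotypes and Igtp and Iigp1 in KO only, except that with scaling by library size alone Cmpk2 in WT (0.28) and Iigp1 in KO (0.11) lie right of 0.

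The counts depend on scaling and on the sex-chromosome pattern. Scaling by library size alone, which leaves in a shift of 0.38 (KO) and 0.37 (WT) in the median log2 fold change of all genes, called 32 of the 36 higher and none lower in KO and 34 higher and none lower in WT. Among all 18093 genes it called 10114 higher and 2179 lower in KO, and 8560 higher and 2001 lower in WT. Of all calls, 82.3% in KO and 81.1% in WT were then higher, against 53.7% and 52.1%. With the sex-chromosome pattern as a covariate the counts were 28 higher and 4 lower in KO and 31 higher and none lower in WT. Among all 18093 genes that fit called 4885 higher and 4584 lower in KO, and 4799 higher and 4563 lower in WT. Within the Y-linked libraries only KO day 0 has more than 1 library, and the spread is taken to be alike in all groups. There the median log2 fold change of the 36 genes was 0.94 in KO and 1.13 in WT, beside 0.03 and 0.02 for all genes. Within the Xist libraries, which hold no KO day 0 sample and 1 of WT day 0, it was 0.96 in WT, beside 0.05 for all genes.

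Levels of different genes are comparable only per length, here as deposited CPM per kilobase of exon. Ifi27l2a was highest after obstruction, averaging 203 CPM per kilobase in KO day 5 and 271 in WT day 5, against 38.9 in KO day 0 and 34.4 in WT day 0. Bst2 followed with 110 in KO day 5 and 130 in WT day 5, against 35.2 in KO day 0 and 36.5 in WT day 0, so that the pair changed place only in WT day 0. Ifit3 came next in all 4 groups, at 29.4 in KO day 5, 39.2 in WT day 5, 14.9 in KO day 0 and 16.8 in WT day 0. Oas3 was last in all 4, at 0.756 in KO day 5, 0.904 in WT day 5, 0.0961 in KO day 0 and 0.156 in WT day 0. Rsad2, which did not rise, moved down the order, to rank 17 in KO day 5 and 20 in WT day 5, against rank 5 in KO day 0 and 6 in WT day 0.

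The second comparison sets KO against WT kidneys at day 5. No member was called, and among all genes 0% were called by limma (0% higher and 0% lower). The smallest adjusted p of a member was 0.656, that of Isg15, and edgeR also called none of the 36, while DESeq2 gave none of them an adjusted p. With the sex-chromosome pattern as a covariate, or within the Xist libraries, no member was called either (smallest adjusted p = 0.201 and 0.0954). The point estimates leaned one way: 34 of the 36 genes were lower in KO than in WT kidneys (48.6% of all genes were), with a median log2 fold change of -0.25, and 8 had an unadjusted p under 0.05 (5.67% of all genes). For 13 genes every KO day 5 library lay below every WT day 5 library, which held for 4.21% of all genes, and no member lay above (5.72% of all genes). Without WT day 5 replicate 2 the number below was 20, but leaving out a library can only keep or raise it. The share of all genes was not counted there. The 36 genes were measured in the same 6 kidneys, so they are not independent observations of the genotype. Without WT day 5 replicate 1, the library with the highest summed level and the highest day 5 library for 25 of the 36 genes, 27 of the 36 were lower in KO and the median was -0.16. Without KO day 5 replicate 2, the lowest day 5 library for 17 of the 36, 4 estimates were positive and the median was -0.19.

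Isg15 showed the largest difference, at 15.0, 10.2 and 15.5 scaled CPM in KO day 5 against 30.6, 18.4 and 20.0 in WT day 5 kidneys, a log2 fold change of -0.73 ± 0.20 (95% interval -1.15 to -0.30, unadjusted p = 0.00273). Iigp1 stood at 18.0, 13.2 and 22.6 in KO and 30.9, 31.9 and 23.4 in WT (-0.69, 95% interval -1.22 to -0.15), and Gbp2 at 28.4, 41.1 and 33.6 in KO and 50.2, 54.9 and 58.9 in WT (-0.67, 95% interval -1.27 to -0.08). In all 3 genes the highest KO library was below the lowest WT library, and none passed adjustment (adjusted p = 0.656, 0.836 and 0.855). The other members under the unadjusted threshold were Ifit2 (-0.45), Ifit3 (-0.38), Ifit3b (-0.43), Irf7 (-0.31) and Ifih1 (-0.23). Bst2, Parp14, Gbp3, Irgm1 and Tap1 completed the 13 genes without overlap, with values from -0.36 (Tap1) to -0.18 (Parp14). At the other end, Oas2, which changed most with obstruction in KO kidneys, had a difference of -0.0019 with a 95% interval of -0.58 to 0.57. Ddx58 (0.06) and Ifi44 (0.10) were the 2 positive estimates.

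**Figure D4:**
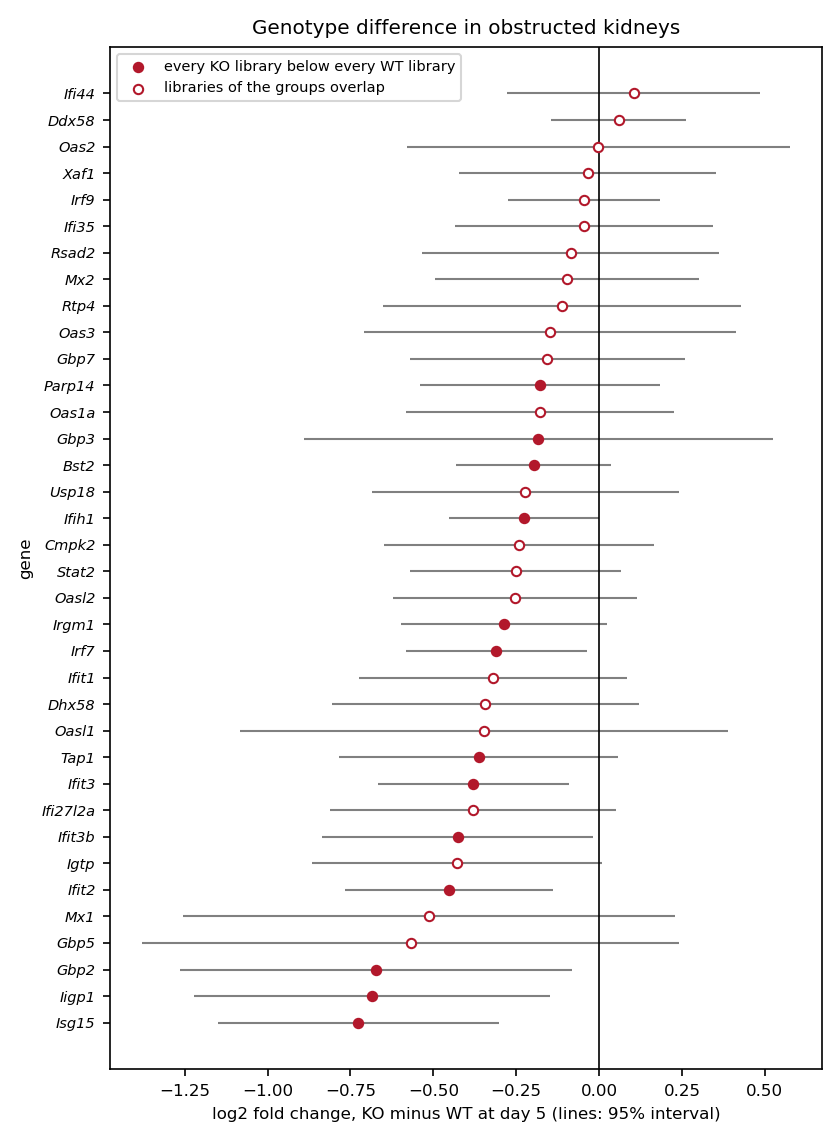
Log2 fold change of each gene, KO minus WT, in day 5 kidneys (horizontal axis), sorted by size, with lines for the 95% interval and filled points where every KO library lies below every WT library. Estimates lie left of 0 for 34 of 36 genes, the 13 filled points are all on that side, and no gene passed adjustment.

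At day 0, no member was called between genotypes, beside 0.0166% of all genes in either direction (3 genes, all lower in KO, 0.0166%, and 0% higher), and 24 of the 36 had lower values in KO (50.4% of all genes did). Only Gbp3 had an unadjusted p under 0.05 (-0.86 ± 0.35, adjusted p = 0.276), and its difference rests on WT day 0 replicate 2, without which it was 0.07. By edgeR no member was called at day 0. By DESeq2 Gbp3 was (-1.11, adjusted p = 0.0423), where 225 of all 18093 genes were called higher and 145 lower. Without WT day 0 replicate 1, which leaves 1 library in that group, Gbp3 was at -1.76 and Gbp7 at -0.82. Every KO day 0 library lay below both WT day 0 libraries for Ddx58, Isg15, Usp18, Ifit3b and Oas2 (12.4% of all genes did so), and no member lay above (12.9%). Usp18, for example, was at 5.01, 3.57, 2.92 and 2.80 in KO and 5.08 and 5.08 in WT kidneys, and Oas2 at 3.40, 4.48, 4.02 and 2.92 in KO and 6.17 and 4.83 in WT kidneys. The KO and WT ranges of the other 31 genes overlapped.

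The interaction, which tests whether the change from day 0 to day 5 differs between genotypes, called no member (0.00553% of all genes were called, 1 gene, higher in KO, 0.00553%, and 0% lower). Igtp and Iigp1 had the smallest p-values, with interaction values of -0.89 ± 0.29 (95% interval -1.53 to -0.25, adjusted p = 0.589) and -0.95 ± 0.36 (95% interval -1.73 to -0.16, adjusted p = 0.619). Both are immunity-related GTPases whose estimates were negative in KO and positive in WT kidneys, and in neither was the difference past the threshold. The remaining 34 members had unadjusted p-values above 0.05, and edgeR called none of the 36. Without WT day 0 replicate 1, which leaves 1 library in that group, the interaction value of Gbp3 was 1.57.

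The interferons themselves were near the limit of detection. Of 21 interferon genes searched, 14 had no read in any library and none passed the filter on low values. All 21 together had 9 reads over the KO day 5 libraries, 14 over WT day 5, 10 over KO day 0 and 2 over WT day 0, and no interferon exceeded 4 reads in a library. Interferon gamma (Ifng), the product of T and NK cells, had 5, 8, 5 and 0 reads in the same 4 groups. The 14 interferon alpha genes had 2, 1, 2 and 1, and interferon beta (Ifnb1) had a single read, in KO day 0. A count of 0 in a group allows up to 0.0535 CPM in KO day 5, 0.0558 in WT day 5, 0.0411 in KO day 0 and 0.0803 in WT day 0, from 3 reads over the pooled group and for counting error only.

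The receptors of interferon were expressed and rose. Ifngr2, a chain of the gamma receptor, averaged 71.5 ± 15.1 scaled CPM in KO day 5 and 75.4 ± 7.45 in WT day 5, against 25.6 ± 3.10 in KO day 0 and 23.6 ± 1.01 in WT day 0 kidneys (SD), a rise of 1.45 and 1.65. Ifnar1, a chain of the type I receptor, rose by 0.75 in KO and 0.68 in WT kidneys. The other gamma receptor chain, Ifngr1, rose by 1.43 in KO and 1.29 in WT kidneys, and the receptor-bound kinase Tyk2 by 0.66 and 0.55. Among 17 genes that induce interferon, 10 rose and 1 (Trim25, -0.22) fell in KO, and 10 rose and none fell in WT kidneys. The innate DNA-sensing adaptor Tmem173 (STING) averaged 33.0 ± 1.99 in KO day 5 and 36.8 ± 3.36 in WT day 5, against 4.36 ± 1.53 in KO day 0 and 3.33 ± 0.859 in WT day 0 kidneys (2.83 and 3.30 on the log2 scale). Cgas, the enzyme that feeds it, rose by 1.58 and 1.95. Of 11 tested brakes on the response, 6 rose and 3 fell in KO and 7 rose and 1 fell in WT kidneys, led by the receptor inhibitor Socs3 (4.87 in KO and 5.11 in WT). Among all genes, 29.4% were called higher and 25.4% lower in KO, and 24.5% and 22.6% in WT kidneys.

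Related genes outside the 36 were counted in the same fit. It called 29.4% of all genes higher and 25.4% lower in KO, and 24.5% higher and 22.6% lower in WT kidneys. Of 62 tested further interferon-stimulated genes, 43 rose and 5 fell in KO and 45 rose and 3 fell in WT kidneys (medians 0.70 and 0.91), with Ifi207 (2.34 and 2.15), Ifi204 (2.11 and 1.87), Lgals3bp (1.35 and 1.20) and Zc3hav1 (1.31 and 1.38) showing the smallest adjusted p in KO kidneys. Of 17 class I presentation genes, 14 rose and 1 (H2-T22) fell in KO, and 14 rose and none fell in WT kidneys (medians 0.82 and 1.16), among them Psmb10, Psmb8, B2m and Tap2. Of 19 tested genes induced mainly by interferon gamma, 7 rose and 2 fell (Gbp6, -0.50, and Gbp10, -1.27) in KO, against 9 that rose and none that fell in WT kidneys, with medians of 0.11 and 1.13. Cxcl10, a chemokine for activated T cells, rose by 2.38 in KO and 2.19 in WT, and the class II regulator Ciita by 1.67 and 2.17. The interaction values of this list were negative for 18 of 19 genes with a median of -0.67, beside 23 of the 36 members and 49.3% of all genes, and none was called. The 2 WT day 0 libraries behind this contrast lay far apart for some of its genes, such as Cxcl9 with 31 reads in replicate 1 and 337 in replicate 2.

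Markers of other cells moved with the same comparisons, those of endothelium and part of the B lymphocyte markers excepted. Of 5 tested B lymphocyte markers, 2 rose and none fell in each genotype (medians 0.19 in KO and 0.54 in WT). Sums of markers are of deposited CPM before scaling. Calls stand beside the 29.4% of all genes called higher and 25.4% lower in KO, and 24.5% and 22.6% in WT kidneys. Macrophage markers (13 genes, none at 0) summed to 1457 to 1929 CPM in KO day 5 and 1398 to 1792 CPM in WT day 5, against 238 to 311 CPM in KO day 0 and 258 to 261 CPM in WT day 0 libraries, and 12 of the 13 rose in each genotype. The other, Mertk, was called lower in WT (-0.66) and not called in KO kidneys (-0.20). T and NK cell markers (14 genes) summed to 23.1 to 41.8 CPM in KO day 5 and 29.2 to 49.1 CPM in WT day 5, against 9.21 to 11.8 CPM in KO day 0 and 8.94 to 9.92 CPM in WT day 0 libraries. Plasmacytoid dendritic cell markers (8 genes) summed to 28.6 to 33.4 CPM in KO day 5 and 27.7 to 40.3 CPM in WT day 5, against 7.01 to 8.81 CPM in KO day 0 and 8.46 to 8.88 CPM in WT day 0 libraries. Of the 8, 5 rose in KO and 6 in WT, while Cox6a2 fell in both (-1.48 in KO and -2.06 in WT). Between genotypes at day 5, 7 of 13 macrophage markers were higher in KO (median 0.02), none with an unadjusted p under 0.05. Neutrophil markers (7 genes) summed to 15.7 to 50.6 CPM in KO day 5 and 62.4 to 94.9 CPM in WT day 5, against 1.83 to 2.47 CPM in KO day 0 (Cxcr2 at 0) and 2.75 to 4.39 CPM in WT day 0 (Ly6g at 0). All 6 tested neutrophil genes were lower in KO at day 5, with a median log2 fold change of -1.22 and unadjusted p under 0.05, but none was called. Proximal tubule markers were all 7 higher in KO at day 5 (median 0.57, 3 with an unadjusted p under 0.05, none called). KO day 5 replicate 2, the lowest of the 6 day 5 libraries for 17 of the 36 genes, Isg15, Irf7 and Ifit3 among them, had the highest macrophage sum (1929 CPM) and the lowest sum of distal nephron markers (1967 CPM, against 4424 and 4638 CPM in KO day 5 replicates 1 and 3 and 2858 to 3890 CPM in WT day 5 libraries). Its proximal tubule sum was 2565 CPM, against 4386 and 4899 CPM in the same replicates. It is the only KO day 5 library with Y-linked transcripts. Endothelial markers summed to 316 to 405 CPM in KO day 5 and 354 to 404 CPM in WT day 5, against 225 to 339 CPM in KO day 0 and 274 to 333 CPM in WT day 0 libraries. Mitochondrial genes, counted as a share of each library, made up 3.89% to 4.34% in the day 5 kidneys against 8.31% to 9.26% in the day 0 kidneys. The part of these cell types and of the mitochondrial share in the levels of the interferon-stimulated genes was not tested.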

How the data were processed

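Polyadenylated RNA of 12 kidneys was sequenced as 50-base reads, per the labels' protocols. The authors deposited CPM (reads scaled to the library total) per gene. STAR, SAMtools, HTSeq and the build GRCm38.p6 are named per the submitters' processing notes, and whether counting used strand is not given in the sources used here. CPM columns sum to the same total, and whole reads were recovered from their steps for 100% of 665652 values within 0.001 (16567256 to 19398882 reads per library).

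The main test was limma 3.58.1 (moderated, with trend, R 4.3.3) on log2(CPM divided by TMM factors + 0.5), in all 12 libraries and 4 groups, after a filter of at least 10 reads (edgeR 4.0.16) that kept 18093 genes. P-values were adjusted by Benjamini-Hochberg over all of these, and a call is an adjusted p under 0.05. Fold changes on this scale understate the change of low genes. The script was tested on simulated data. Alternatives were library size or RLE scaling, other pseudocounts, no filter, the groups compared alone, edgeR and DESeq2 1.42.0 on recovered reads, the sex-chromosome pattern as covariate or within it, and leaving out each library. Values in every library are given for the genes of highest mean and largest change per role, those called lower or in 1 genotype only, and, chosen after their values were seen, the members called in neither genotype and the others shown in full. The members and gene lists were chosen with earlier results of these data known. Some genes stand on more than one list. Promoters and coordinates are of GRCm38.p6. Results of 1 list of upstream signalling genes are given for named genes only, and 1 item is not reported here.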

Additional observations from a re-analysis of the deposited data

Results flagged for a closer look

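Dixon's ratio (gap to the nearest library over the group's range) was computed only for KO day 0, the one group with 4 libraries, and passed the 95% critical value for 4 of the 36 genes. The other groups were not screened. Chance flags about 1 in 20 groups. Replicate 1 was apart and highest for Oas3 (1.11 scaled CPM, ratio 0.928), Irgm1 (63.0, ratio 0.923) and Gbp3 (19.8, ratio 0.883). Replicate 2 was apart and highest for Irf9 (28.5, ratio 0.901). The KO day 0 values of Oas3, Gbp3 and Irf9 lay below all KO day 5 values, and these 3 genes were called higher in KO with and without the library. Irgm1, not called in KO, was called higher (0.34) without KO day 0 replicate 1.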

How the results depend on the processing

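No paired analysis was possible because the labels give the groups no shared replicate numbers. Leaving out each library in turn gave 28 to 30 members higher and 1 to 3 lower in KO. In WT it gave 24 to 29 higher and 0 to 1 lower (1 without WT day 5 replicate 1, Rsad2). Between genotypes it gave none at day 5, and none at day 0 or in the interaction while both WT day 0 libraries were kept. Without WT day 0 replicate 1, which leaves 1 library in that group, Gbp3 was at -1.76 and Gbp7 at -0.82 at day 0. The interaction value of Gbp3 was then 1.57. The count lower in KO was 0 with library size scaling and 4 with the sex-chromosome covariate. DESeq2 called 1 member lower at day 0 (Gbp3, -1.11, adjusted p = 0.0423), beside 145 of all 18093 genes. DESeq2 gave no adjusted p for any member at day 5. Signs turned for Iigp1 in KO (0.11) and Cmpk2 in WT (0.28) with library size scaling, and within Y-linked libraries for Ifit3b in KO (-0.13), Ifi44 in KO (-0.16) and WT (-0.19) and Gbp3 between genotypes at day 0 (0.051). Leaving out 1 library gave -0.039 to 0.33 for Ifi44 in KO, -0.018 to 0.25 for Ifi44 in WT, -0.012 to 1.82 for Gbp3 in WT and -1.76 to 0.067 for Gbp3 between genotypes at day 0. The cause was not tested. Of the single-gene values, 798 of the KO and 809 of the WT ones kept direction and side of the threshold, 11 and 40 lost a call, and 15 and 11 gained one. The number of members with every KO day 5 library below every WT day 5 library, an alternative reading chosen after seeing the data, was 13 with RLE and library size scaling too. Leaving out a library can only keep or raise it, and gave at most 20 (without WT day 5 replicate 2). The share of all genes was not counted for these alternatives. With 2 WT day 0 libraries, differences that rest on that group are the least certain.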
